A study of Homo sapiens with 6 samples.

Results

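Cyclins, cyclin-dependent kinases (CDKs), the CDC25 phosphatases and the CKS subunits were examined in HPNE-hTERT cells, a telomerase-immortalized line that the labels describe as pancreatic, epithelial ductal and non-malignant. The members were every protein-coding row of the deposited expression table named as a cyclin (CCN with a letter and, where present, a number), a numbered CDK, CDC25A to CDC25C, CKS1B or CKS2. There were 51 members among 62754 rows, of which 20075 were protein-coding. They were grouped by known role into 21 cell cycle members, 13 transcriptional members and 17 others. Cells of 1 group received FOLFIRINOX, here 5 µM oxaliplatin, 25 nM SN-38 (the active metabolite of irinotecan) and 10 µM 5-fluorouracil, for 4 days, a treatment used to induce senescence. The other group was labelled as a control with DMSO, the vehicle, at day 4. Each group had 3 libraries of polyadenylated RNA, all from the same line, so both groups carry the same immortalizing transgene. The table's columns name the treatment and a number, P14, P15 or P19, which no label explains. Values are given below in the order P14, P15, P19.

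A cyclin binds a CDK and switches it on, and cyclin levels rise and fall over the cell cycle. D-type cyclins with CDK4 or CDK6 act in G1, where they phosphorylate the retinoblastoma protein and so free E2F factors. E-type and A-type cyclins with CDK2 act at entry to and through S phase, and A-type and B-type cyclins with CDK1 drive mitosis. CDC25 phosphatases remove inhibitory phosphates from CDKs, and CKS proteins are small adaptors that help cyclin-CDK complexes dock on their substrates. A separate branch of the same families, such as cyclin T with CDK9, phosphorylates RNA polymerase II or parts of the transcription machinery and does not depend on the cell cycle.

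The libraries held 83981154 to 97762802 reads. The share of reads from the mitochondrial rRNA genes was 2.74%, 1.18% and 1.23% with FOLFIRINOX and 0.864%, 0.563% and 0.552% with vehicle, and its part in the results was not tested. The labelled ductal identity had limited marker support. Of 9 ductal or epithelial markers 6 passed the filter on low values, while the defining markers KRT19, EPCAM and CFTR did not. With vehicle the 6 averaged 9901 (KRT18), 1776 (KRT8), 1545 (SOX9), 159 (KRT7), 101 (MUC1) and 51.1 (CDH1). All 11 mesenchymal markers passed. Summed normalized values were 11979 to 14439.7 (vehicle) and 8962.5 to 9959 (FOLFIRINOX) for the ductal list, against 1478172 to 2141864 and 1306788 to 1456121 for the mesenchymal list. With FOLFIRINOX 6 of the 11 mesenchymal markers were lower and 1 higher (63.6% called by limma; VIM −0.91, COL1A1 −1.05 and DCN 1.33 on the log2 scale), and 2 of the 6 ductal markers were lower (SOX9 −0.96 and KRT18 −0.47). The KRT18 call was lost when any library other than vehicle P19 was left out (limma adjusted p from 0.0831 to 0.179), and that of COL1A1 without both P14 libraries (0.0891). The part of these marker differences in the results was not tested. None of 9 acinar or endocrine markers passed, with sums of at most 6.17, and CELA3A, CTRB1, INS, PRSS1 and SST had no reads in any library. Of 7 immune or endothelial markers 2 passed, with sums of 27.7 to 44.6 (vehicle) and 31.9 to 68.2 (FOLFIRINOX). In these bulk libraries fewer cells in a given phase and less RNA per cell cannot be told apart. Whether the libraries are separate cultures is not stated, so each p-value reflects the spread among these libraries, which may be technical.

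Most cell cycle members fell with FOLFIRINOX, and transcriptional members mostly did not pass the test. Values of 46 members were high enough to test (10 or more in at least 3 libraries). A call means an adjusted p below 0.05 in a limma fit of log2(value + 1) over 17951 genes. By that rule 14 of 20 tested cell cycle members were lower, 2 were higher and 4 were not called, where 12.2% of all genes were lower and 11.4% higher. The median log2 difference of the cell cycle members was −2.00, beside 0.02 over all genes tested. Of 13 transcriptional members 1 was higher and 0 were lower, with a median of 0.15. The count lower was also 0 by limma at an unadjusted p below 0.05, by edgeR and by DESeq2. No share over all genes was computed for the unadjusted rule. Of all 17951 genes edgeR called 2389 lower and DESeq2 2476. Of 13 other members tested 2 were higher and 2 lower, with a median of −0.22. The share of members called in either direction was therefore 80.0%, 7.69% and 30.8% in the 3 classes, against 23.6% of all genes. All members are protein-coding, and of 13032 protein-coding genes tested 2003 were lower and 1447 higher (26.5% called). In the authors' deposited table, 5 members were higher and 16 lower at their own adjusted p below 0.05, as many in each direction as in the limma fit. With P number as a block 8 members were higher and 20 lower, where 44.1% of all genes were called.

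**Figure D1:**
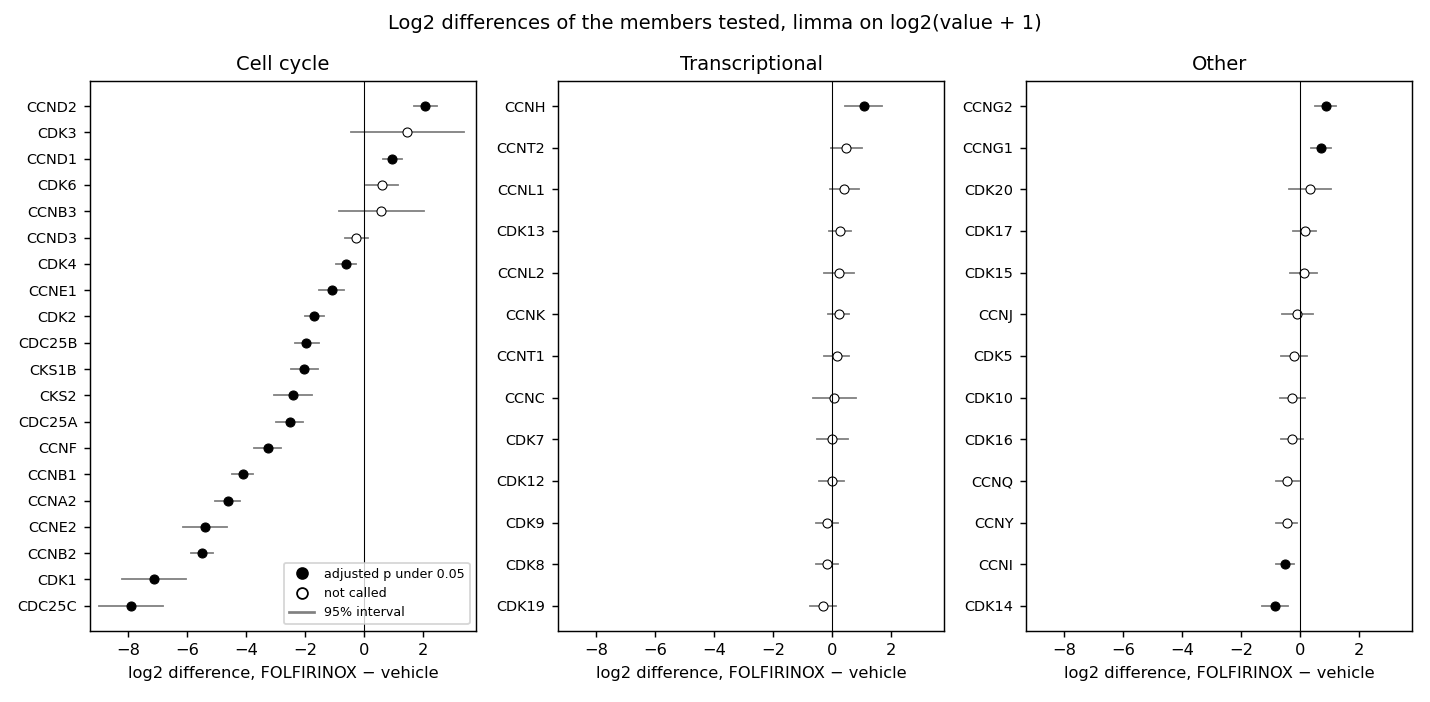
Log2 difference, FOLFIRINOX minus vehicle, of each tested member (x axis, log2(value + 1) scale, with 95% confidence intervals from limma, 3 libraries per group), by class. Cell cycle members spread from −7.92 (CDC25C) to 2.07 (CCND2), while 12 of 13 transcriptional members lay between −0.33 and 0.47 and were not called.

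The mitotic cyclins and their kinase were among the members with the largest differences. Cyclin B1 (CCNB1, chr5:69167010-69178245 in GENCODE 29 on GRCh38), which activates CDK1 at mitotic entry, had normalized values of 19493, 15819.8 and 18586 with vehicle and 1156, 946 and 991 with FOLFIRINOX. Its partner kinase CDK1 (chr10:60778331-60794852) had 5909, 2626 and 7596 with vehicle and 76.1, 17.7 and 28.0 with FOLFIRINOX. For both genes every FOLFIRINOX library lay far below every vehicle library. CCNB1 was 17.4-fold lower (log2 difference −4.12 ± 0.16 SE, limma adjusted p = 3.2e-08) and CDK1 132-fold lower (−7.14 ± 0.49, limma adjusted p = 2.4e-06). The CDK1 difference varied between pairs of libraries with the same P number, from −6.26 at P14 and −7.13 at P15 to −8.03 at P19.

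Cyclin B2 (CCNB2), a second mitotic cyclin, had 5689.8, 5582 and 6974 with vehicle and 144, 124 and 129 with FOLFIRINOX, a 46.0-fold fall (log2 difference −5.51 ± 0.17, limma adjusted p = 7.6e-09). Cyclin A2 (CCNA2), which serves CDK2 in S phase and CDK1 in G2, had 8291, 9696 and 13303 with vehicle and 399, 441 and 396 with FOLFIRINOX, a 25.3-fold fall (−4.63 ± 0.19, limma adjusted p = 4.8e-08). Its FOLFIRINOX values differed little from one another, with an SD of 24.9 around 412. Cyclin F (CCNF), a substrate-binding subunit of an SCF ubiquitin ligase that does not activate a CDK, fell 9.62-fold, from 1745 ± 212 (SD, n = 3) to 181 ± 39.6 (−3.27 ± 0.21, limma adjusted p = 1.2e-06). In all of these the groups were separate. Every FOLFIRINOX value was below every vehicle value in 14 of the 20 tested cell cycle members. That order held for 19.6% of all genes and for 3067 of 13032 protein-coding genes. Cyclin B3 (CCNB3), best known from meiosis, was near the filter at 10.3 ± 8.92 and 13.6 ± 5.23 and was not called (0.58, 95% interval −0.86 to 2.01).

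**Figure D2:**
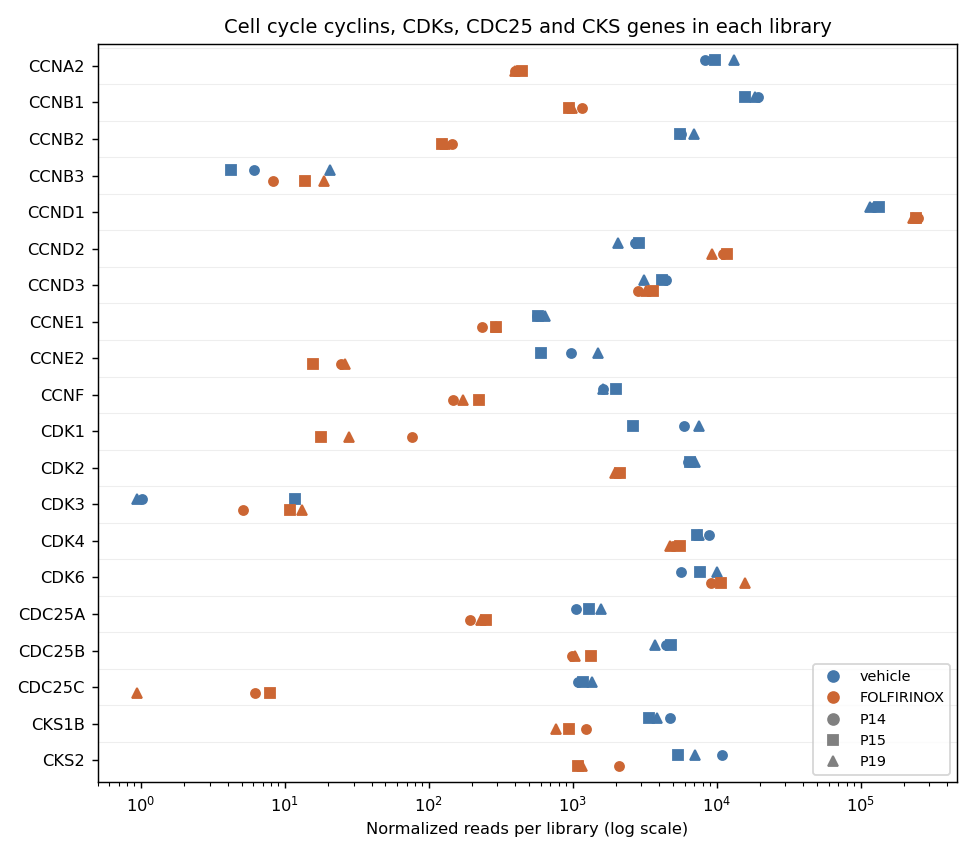
Normalized value (x axis, log scale) of each cell cycle member in the 3 FOLFIRINOX and 3 vehicle libraries, 1 point per library. For CCNB1, CDK1 and 12 other members every FOLFIRINOX point lies left of every vehicle point, and for CCND1 and CCND2 the order is the opposite.

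The CDC25 phosphatases all fell, by very different amounts. CDC25C (chr5:138285265-138338355), which activates CDK1 at mitotic entry, had 1083, 1176 and 1367 with vehicle and 6.17, 7.87 and 0.934 with FOLFIRINOX, the latter from 6, 8 and 1 reads. That is a 242-fold lower mean (log2 difference −7.92 ± 0.49, limma adjusted p = 1.0e-06), and with so few reads the log2 difference ranged from −8.13 (pseudocount 0.5) to −6.58 (pseudocount 8), and was −7.24 without FOLFIRINOX P19. CDC25A, which acts from G1 into S phase, fell 5.84-fold from 1309 ± 269 to 224 ± 28.0 (−2.53 ± 0.21, limma adjusted p = 8.9e-06). CDC25B, linked to the start of mitosis, fell 3.87-fold from 4334 ± 559 to 1119.7 ± 197 (−1.96 ± 0.18, limma adjusted p = 2.4e-05). As a share of the reads per kilobase of the 3 genes, CDC25C went from 21.5% ± 2.77 to 0.464% ± 0.320 and CDC25B from 59.6% ± 6.57 to 82.2% ± 1.24, while CDC25A had 18.9% ± 3.87 and 17.4% ± 1.53.

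Both CKS genes fell as well. CKS2 had 10861, 5375 and 7125 with vehicle and 2090.4, 1096 and 1162 with FOLFIRINOX, a 5.37-fold fall (log2 difference −2.43 ± 0.29, limma adjusted p = 1.8e-04). CKS1B had 4714, 3378 and 3845 with vehicle and 1231, 941 and 763 with FOLFIRINOX, a 4.07-fold fall (−2.04 ± 0.21, limma adjusted p = 5.1e-05). The ratio of CKS2 to CKS1B reads per kilobase was 7.31 with vehicle and 5.57 with FOLFIRINOX with overlapping groups (two-sided exact permutation p = 0.200, ignoring the pairs). Within P numbers it was lower with FOLFIRINOX each time, from 8.79 to 6.47 at P14, 6.07 to 4.44 at P15 and 7.07 to 5.81 at P19. CKS1B has 7 pseudogenes in the table to which reads could have been split, with summed means of 34.7 with vehicle and 17.4 with FOLFIRINOX.

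Promoter sequences of the members were searched for letters known from cell cycle genes. The RefSeq promoter table (GRCh38.p14) lists windows of 300 bases, 250 before to 50 after a start of a gene (here the RefSeq start). It held 72 windows for 47 of the 51 members. CCND1, CCND2, CCNE2 and CDK2 were not matched. The cell cycle genes homology region (CHR, searched as TTTGAA or TTCGAA) and the CCAAT box are elements known from promoters of mitotic genes. They are shown for 7 members that fell and for CCNG1, a member that rose, on the gene's own strand, with CHR and CCAAT letters of either strand in capitals. Each stretch covers 150 bases before the RefSeq start, or 30 bases (36 to 7 before it) for CDK1 and CDC25C. Where several windows were listed, the one with a CHR nearest its start was taken. For CCNB1, CDK1 and CDC25C, whose GENCODE bounds are given above, the RefSeq start used lies inside those bounds.
CCNB1 (chr5:69167000-69167149, plus strand): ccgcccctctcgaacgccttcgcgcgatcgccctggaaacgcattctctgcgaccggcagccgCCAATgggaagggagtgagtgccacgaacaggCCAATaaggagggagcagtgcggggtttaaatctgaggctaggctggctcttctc
CCNB2 (chr15:59104996-59105145, plus strand): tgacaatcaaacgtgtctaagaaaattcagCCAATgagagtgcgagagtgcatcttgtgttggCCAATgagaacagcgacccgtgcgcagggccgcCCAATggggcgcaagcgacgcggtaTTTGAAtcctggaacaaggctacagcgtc
CCNA2 (chr4:121823884-121824033, minus strand): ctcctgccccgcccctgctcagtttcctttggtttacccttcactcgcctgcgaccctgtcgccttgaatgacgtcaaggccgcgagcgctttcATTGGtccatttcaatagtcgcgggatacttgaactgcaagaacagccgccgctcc
CDK1 (chr10:60778442-60778471, plus strand): ccggggccctttagcgcggtgagTTTGAAa
CDC25C (chr5:138331811-138331840, minus strand): ggaaggTTTGAAtggtcaacgcctgcggct
CKS1B (chr1:154974531-154974680, plus strand): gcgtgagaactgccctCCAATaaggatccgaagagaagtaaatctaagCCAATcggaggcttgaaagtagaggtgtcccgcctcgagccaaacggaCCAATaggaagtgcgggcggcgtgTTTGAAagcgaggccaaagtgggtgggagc
CKS2 (chr9:89311045-89311194, plus strand): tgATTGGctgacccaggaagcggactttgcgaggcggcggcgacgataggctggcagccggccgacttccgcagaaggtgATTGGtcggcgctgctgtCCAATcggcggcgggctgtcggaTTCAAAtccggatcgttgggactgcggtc
CCNG1 (chr5:163437421-163437570, plus strand): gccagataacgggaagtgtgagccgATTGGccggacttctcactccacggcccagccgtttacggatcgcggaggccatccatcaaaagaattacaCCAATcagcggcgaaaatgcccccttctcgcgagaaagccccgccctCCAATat

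In the sequences above, CCNB2, CKS1B and CKS2 each have 3 CCAAT boxes before a CHR, CCNA2 and CCNB1 have CCAAT letters and no CHR by these letters, and CCNG1 has CCAAT boxes alone. Searched on both strands, a CHR was found in 9 of 19 windows (47.4%) of the cell cycle members that fell, from 7 of 12 genes (CCNB2, CCNF, CDC25B, CDC25C, CDK1, CKS1B and CKS2). It was in 2 of 19 transcriptional windows (10.5%), in 2 of 26 windows of the other members (7.69%) and in 16.4% of all 35116 windows. CCAAT was in 13 of those 19 cell cycle windows (68.4%), in 6 transcriptional windows (31.6%), in 9 windows of the others (34.6%) and in 34.6% of all windows. E2F letters (TTCCCGC, also searched as TTCGCGC, as the variant TTGCCGC and as the variant TTGGCGC, which can overlap a reversed CCAAT box) were in 7 of the 19 cell cycle windows (36.8%), in 2 transcriptional windows (10.5%), in 4 windows of the others (15.4%) and in 13% of all windows. A CHR starting 40 to 10 bases before the RefSeq start occurred in 6 of the 19 windows (31.6%). It was in no transcriptional or other window and in 1.75% of all windows. The range was chosen after the matches had been seen. Over all 27 cell cycle windows a CHR was in 9 (33.3%), CCAAT in 15 (55.6%), E2F letters in 7 (25.9%) and a CHR in that range in 6 (22.2%). Of the 7 windows of cell cycle members not called, 0 had a CHR, 2 had CCAAT and 0 had E2F letters. Counted by gene over all windows, 5336 of 27305 genes had a CHR. Some windows of the same gene overlap, and a match describes letters in a window only. The CHR and CCAAT box were already known from mitotic genes, so finding them in such members was likely beforehand. These shares were not tested.

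The E-type cyclins, partners of CDK2 at the G1 to S transition, fell unequally. Cyclin E1 (CCNE1) had 567, 569.8 and 641 with vehicle and 235, 293 and 295 with FOLFIRINOX, a 2.16-fold fall (log2 difference −1.11 ± 0.19, limma adjusted p = 0.00178). Cyclin E2 (CCNE2) had 967, 598 and 1500.1 with vehicle and 24.7, 15.7 and 26.1 with FOLFIRINOX, a 46.0-fold fall (−5.40 ± 0.34, limma adjusted p = 1.2e-06). Per kilobase, both cyclins averaged 232 with vehicle, and with FOLFIRINOX CCNE1 averaged 108 and CCNE2 5.05. The ratio of CCNE2 to CCNE1 was 0.990, 0.609 and 1.36 with vehicle and 0.0610, 0.0311 and 0.0514 with FOLFIRINOX, a log2 change of −4.34 with separate groups. Of CCNE2's exonic bases 37.1% also belong to INTS8 or AC087752.4. The level of INTS8 was 3925 with vehicle and 4952 with FOLFIRINOX, and it was not called (0.35, limma adjusted p = 0.159).

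The D-type cyclins went the other way, except CCND3. Cyclin D1 (CCND1, chr11:69641087-69654474), the sensor of growth signals in many cell types, had 123648, 134982 and 116174 with vehicle and 252072, 243014 and 229664 with FOLFIRINOX, a 1.93-fold rise (log2 difference 0.95 ± 0.14, limma adjusted p = 8.6e-04). Cyclin D2 (CCND2, chr12:4273772-4305350) had 2729, 2871 and 2058 with vehicle and 11099, 11768 and 9242 with FOLFIRINOX, a 4.19-fold rise (2.07 ± 0.18, limma adjusted p = 1.3e-05). For both genes every FOLFIRINOX library was above every vehicle library, an order that 19.9% of all genes showed in this direction. Cyclin D3 (CCND3) was not called, at 3931 ± 690.3 with vehicle and 3238 ± 399.8 with FOLFIRINOX (−0.27, 95% interval −0.67 to 0.13). Per kilobase CCND1 stood far above the other D-type cyclins in both groups, at 25866 with vehicle and 50017 with FOLFIRINOX, where CCND2 had 357 and 1495 and CCND3 had 678 and 558. CCND2 thus lay below CCND3 in the mean with vehicle and above it with FOLFIRINOX.

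The mix of cell cycle cyclin RNA therefore differed between the groups, and its sum was higher with FOLFIRINOX in every library. Reads per kilobase summed over the cell cycle cyclins were 40065, 41388.5 and 40245.5 with vehicle and 54997, 53312 and 50129.9 with FOLFIRINOX. CCND1 made up 63.7% ± 3.88 of this sum with vehicle and 94.7% ± 0.289 with FOLFIRINOX. CCNB1 went from 17.3% ± 2.13 to 0.763% ± 0.0646, CCNA2 from 9.19% ± 2.32 to 0.279% ± 0.0182, and CCND2 from 0.879% ± 0.142 to 2.83% ± 0.254. These shares of 1 total are not independent of one another and were not tested.

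**Figure D3:**
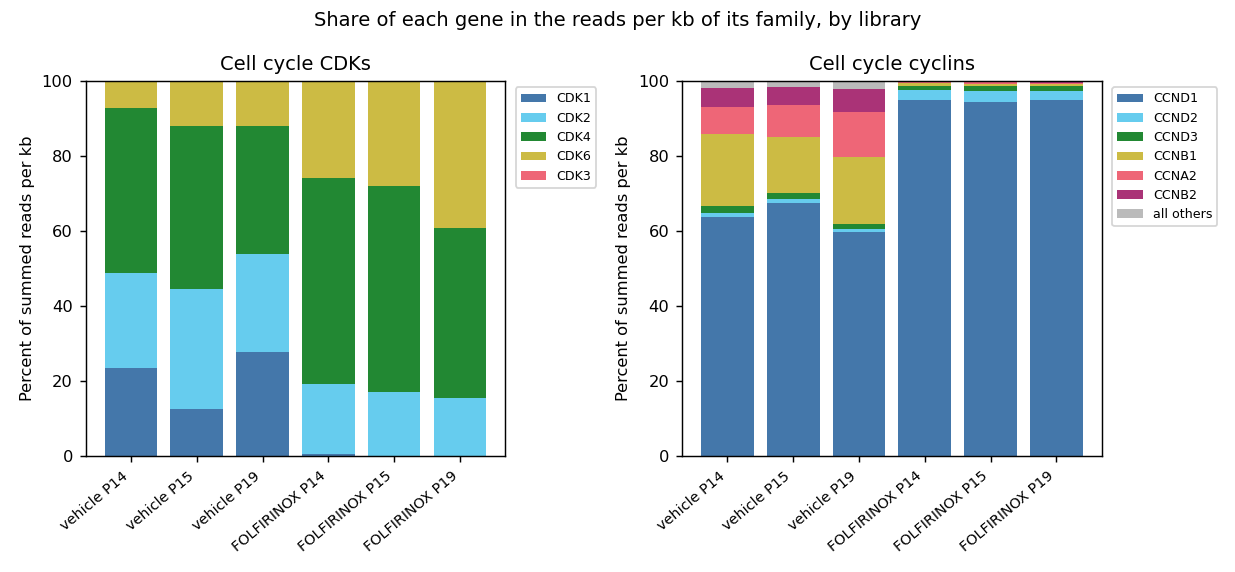
Share of genes in the reads per kilobase summed over the cell cycle CDKs and over the cell cycle cyclins (y axis, percent), 1 bar per library. Cyclins other than CCND1, CCND2, CCND3, CCNB1, CCNA2 and CCNB2 are pooled. CCND1 takes nearly all of the cyclin bar with FOLFIRINOX (94.7%) and CDK1 nearly vanishes from the CDK bar (0.344%).

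Among the interphase kinases CDK2 and CDK4 fell and CDK6 did not. CDK2, the partner of E-type and A-type cyclins, had 6313, 6549.7 and 7055 with vehicle and 2088, 2115 and 1973 with FOLFIRINOX, a 3.22-fold fall (log2 difference −1.69 ± 0.15, limma adjusted p = 1.4e-05). CDK4, a partner of D-type cyclins, had 8867, 7270.1 and 7517 with vehicle and 4982, 5524 and 4753 with FOLFIRINOX, a 1.55-fold fall (−0.63 ± 0.15, limma adjusted p = 0.0136). The groups were separate for both, but the call on CDK4 was lost without the FOLFIRINOX P19 library (limma adjusted p = 0.0732) and without both P14 libraries (0.0822). CDK4 shares 43.2% of its exonic bases with TSPAN31, which was not called (−0.18, limma adjusted p = 0.426).

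CDK6, the other partner of D-type cyclins, had 5674, 7671 and 10080.9 with vehicle and 9115, 10776 and 15743 with FOLFIRINOX. The groups overlapped and the gene was not called (log2 difference 0.61 ± 0.25, 95% interval 0.06 to 1.15, limma adjusted p = 0.1). In each group P14 was lowest and P19 highest, and within P numbers the differences were 0.68, 0.49 and 0.64. With P number as a block CDK6 was called higher (limma adjusted p = 3.8e-05), as it was without the vehicle P19 library (0.029). The ratio of CDK6 to CDK4 reads per kilobase was 0.165, 0.273 and 0.347 with vehicle and 0.473, 0.504 and 0.856 with FOLFIRINOX, a log2 change of 1.24 with separate groups. Of the summed CDK reads per kilobase, CDK6 took 10.3% ± 2.66 with vehicle and 30.8% ± 7.03 with FOLFIRINOX, CDK4 40.5% ± 5.47 and 51.7% ± 5.44, CDK2 27.8% ± 3.56 and 17.0% ± 1.66, and CDK1 21.3% ± 7.83 and 0.344% ± 0.288. The sum itself was 6387, 5277 and 6940 with vehicle and 2875, 3176 and 3305 with FOLFIRINOX. CDK3, near the filter at 4.54 ± 6.17 and 9.68 ± 4.09, was not called, and 91.2% of its exonic bases belong also to the readthrough gene TEN1-CDK3.

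Ratios within a library were compared for 8 pairs of members by two-sided exact permutation tests, in which 3 libraries against 3 cannot give a p below 0.1. The groups were separate and the p was 0.1 (Benjamini-Hochberg adjusted 0.114) for 7 pairs, and CKS2 to CKS1B was the exception. The pairs join members whose own differences are given in this text, and separation was not counted over other gene pairs. This count therefore describes the pairs and adds no support to the calls on single genes. Among these, CDK1 to CDK2 changed by −5.50 on the log2 scale, CDC25C to CDC25B by −6.44, and CCND2 to CCND1 by 1.12.

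Of the transcriptional members CCNH alone was called. Cyclin H (CCNH, chr5:87318416-87413019) joins CDK7 and MAT1 in the CDK-activating kinase, which also forms part of the general transcription factor TFIIH. It had 4644, 2459 and 4032 with vehicle and 10868, 5212 and 7395 with FOLFIRINOX, a 2.11-fold higher mean with separate groups (log2 difference 1.06 ± 0.29, limma adjusted p = 0.0218). The call was lost without the FOLFIRINOX P14 library (limma adjusted p = 0.0706), without the vehicle P15 library (0.072), without both P14 libraries (0.0577) and without the mean-variance trend (0.0821). Within P numbers the difference was 1.23, 1.08 and 0.87. Its partner CDK7 had 4299, 3375 and 4278 with vehicle and 5762, 2911 and 3655 with FOLFIRINOX and was not called (−0.01, 95% interval −0.53 to 0.52). The ratio of CCNH to CDK7 reads per kilobase was 0.430, 0.290 and 0.375 with vehicle and 0.751, 0.713 and 0.805 with FOLFIRINOX, so the groups were separate here too. Of CCNH's exonic bases 22.3% belong also to RASA1 or AC018754.1, and RASA1 was not called (−0.50, limma adjusted p = 0.111).

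P15 was the lowest of the 3 libraries in both groups for CCNH, CDK7 and cyclin C (CCNC), the Mediator kinase cyclin. CCNC had 7851, 3855 and 8791 with vehicle and 9197, 4493 and 7446 with FOLFIRINOX, a difference between P numbers larger than that between treatments (log2 difference 0.07, 95% interval −0.65 to 0.79). The same order held for CCNB1, CCNB2, CCNE2, CCNG1, CDK1, CDK15 and CKS2, in all 10 of 46 members (21.7%), against 16.9% of all genes tested. P14 was lowest in both groups for 15 members (32.6%, against 18.0% of genes), among them CDK6, CCNL1, CCNT1, CCNT2, CDK12, CDK13 and CDK19. P19 was lowest in both groups for 4 (8.70%, against 13.6%).

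The elongation kinases and their cyclins showed small differences. CDK9, which with a T-type cyclin forms the elongation factor P-TEFb, had 3427, 3534 and 2956 with vehicle and 2524, 3311 and 3025 with FOLFIRINOX (log2 difference −0.17, 95% interval −0.54 to 0.20). Cyclin T1 (CCNT1) differed by 0.15 (95% interval −0.27 to 0.58). Cyclin T2 (CCNT2) had 1968, 2133 and 3663 with vehicle and 3066, 3177 and 4228 with FOLFIRINOX, with overlapping groups, and was not called (0.47, limma adjusted p = 0.185). Cyclin K (CCNK) and its kinases CDK12 and CDK13 differed by 0.21 (95% interval −0.15 to 0.57), −0.02 (−0.45 to 0.41) and 0.26 (−0.10 to 0.62). None of these intervals reaches a 2.11-fold change, the size seen for CCNH, in either direction. CCNK shares 59.5% of its exonic bases with CCDC85C, which was lower (−0.85, limma adjusted p = 0.00768).

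The Mediator kinases CDK8 and CDK19 differed by −0.19 (95% interval −0.56 to 0.18) and −0.33 (−0.77 to 0.11). The L-type cyclins, which work with CDK11 in RNA splicing, differed by 0.41 (CCNL1, limma adjusted p = 0.218) and 0.23 (CCNL2, limma adjusted p = 0.509). With P number as a block, CCNL1 (limma adjusted p = 0.00644) and CCNT2 (0.00265) joined CCNH as higher, and CDK19 was lower (0.0303). That made 3 of 13 transcriptional members higher and 1 lower, where the block called 22.3% of all genes higher and 21.8% lower. CCNL1 and CCNT2 were also called without the vehicle P19 library (limma adjusted p = 0.0255 and 0.0162).

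**Figure D4:**
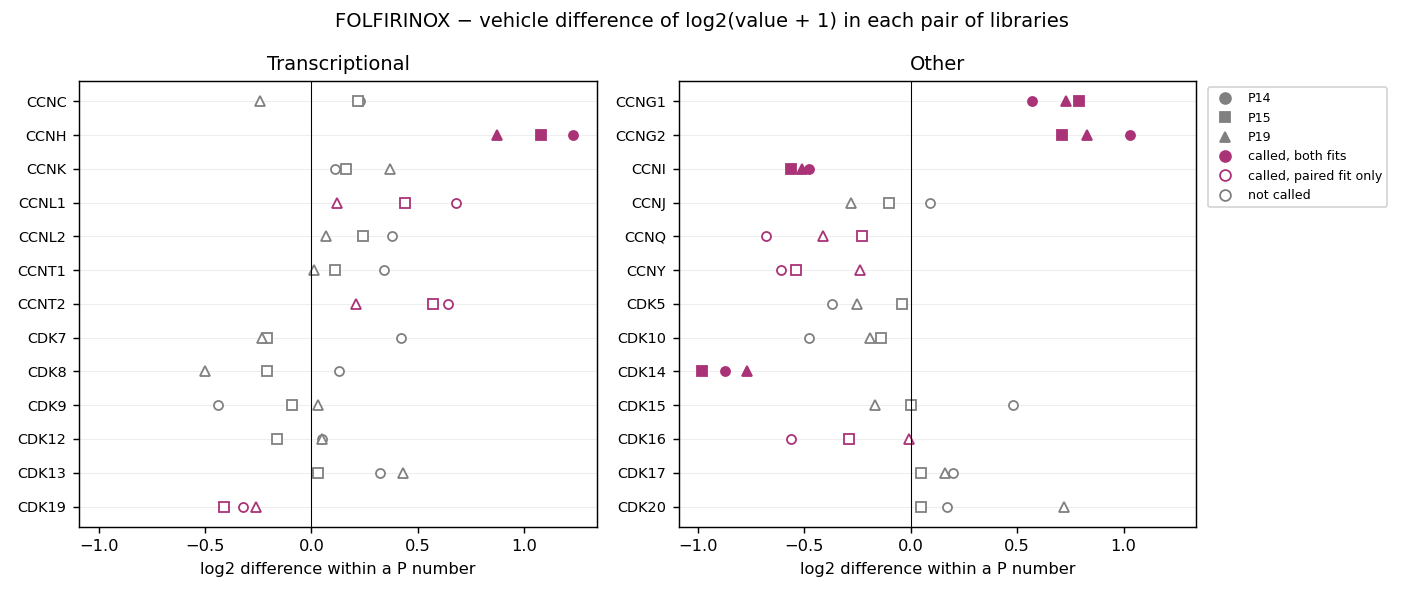
Log2 difference, FOLFIRINOX minus vehicle, within each P number (x axis, log2(value + 1) scale; 1 symbol per P number) for the tested transcriptional and other members. CCNH (0.87 to 1.23), CCNG1, CCNG2, CCNI and CDK14 are among the members with the same sign in all 3, while CCNC and CDK7 take both signs. In all 3, 7 transcriptional members were higher and 1 lower, and 4 other members were higher and 7 lower. Over the 17951 genes tested, 6048 were higher in all 3 and 5654 lower.

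Among the other members, the G-type cyclins rose. Cyclin G1 (CCNG1), a target of p53, had 26318, 21136 and 26101 with vehicle and 39203, 36549 and 43175 with FOLFIRINOX, a 1.62-fold rise (log2 difference 0.70 ± 0.16, limma adjusted p = 0.00837). Cyclin G2 (CCNG2), associated with cell cycle exit, had 2554, 2888 and 3307 with vehicle and 5223, 4724 and 5886 with FOLFIRINOX, a 1.81-fold rise (0.86 ± 0.17, limma adjusted p = 0.00396). The groups were separate for both. CDK14, a kinase that works with cyclin Y in Wnt signalling, had 4513, 6343 and 6244 with vehicle and 2474, 3220.0 and 3649 with FOLFIRINOX, a 1.83-fold fall (−0.87 ± 0.20, limma adjusted p = 0.00949).

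Cyclin I (CCNI), an atypical cyclin, had 46510.3, 52895 and 45732 with vehicle and 33456, 35820.1 and 32087 with FOLFIRINOX, a 1.43-fold lower mean with separate groups (log2 difference −0.52 ± 0.14, limma adjusted p = 0.0246). That call was lost without any of the FOLFIRINOX libraries (limma adjusted p = 0.0537 without P14, 0.0575 without P15 and 0.119 without P19), without the vehicle P15 library (0.111) and without both P14 libraries (0.0555). It was also lost with common total scaling (0.0813), quantile scaling (0.0986), no filter (0.079) and no trend (0.0612). Cyclin Y (CCNY) had 8436, 9792 and 8637 with vehicle and 5541, 6718 and 7288 with FOLFIRINOX, separate groups that were not called (−0.46, limma adjusted p = 0.0597) except with TMM scaling (0.0379), by edgeR (adjusted p = 0.0429) and with the block (limma adjusted p = 0.00132). The block also called CCNQ, the cyclin of CDK10 (−0.44, limma adjusted p = 0.0898 without and 0.0137 with the block), and CDK16 (−0.29, 0.269 without and 0.0495 with it). The block therefore made 5 of the 13 other members lower, where it called 21.8% of all genes lower. CCNJ, CDK5, CDK10, CDK15, CDK17 and CDK20 were called neither way, with log2 differences from −0.27 (CDK10) to 0.32 (CDK20).

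The 5 members that were not tested had low values everywhere. Cyclin A1 (CCNA1), mainly a germ cell cyclin, had 2.06, 1.97 and 1.87 with FOLFIRINOX, which is 2 reads in each library, and no reads with vehicle, which allows up to 3 reads per library. CDK18 had 2.06, 3.93 and 7.47 with FOLFIRINOX and no reads with vehicle. CCNP had 18.5, 30.5 and 3.74 with FOLFIRINOX and 5.12, 5.31 and 3.74 with vehicle. CCNO (1.87 to 17.5) and CCNI2 (0 to 9.84) stayed under the filter as well.

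Known regulators of the cell cycle CDKs (inhibitors, kinases, pocket proteins and ubiquitin ligase subunits among them) were set beside the members. Of 40 listed genes 39 were tested, 18 were lower and 3 higher, with a median of −0.49, so 53.8% were called against 23.6% of all genes. CDC20, the mitotic activator of the anaphase-promoting complex, fell from 5531 ± 219 to 31.2 ± 4.38 (log2 difference −7.43 ± 0.19, limma adjusted p = 3.4e-09). PLK1, a mitotic kinase that activates CDC25C, fell from 5001 ± 549.8 to 54.2 ± 7.39 (−6.51 ± 0.19, limma adjusted p = 4.8e-09). PKMYT1, which places inhibitory phosphates on CDK1, fell from 383 ± 38.6 to 4.38 ± 4.14 (−6.66 ± 0.67, limma adjusted p = 4.5e-05). The FOLFIRINOX value of PKMYT1 rests on 8, 5 and 0 reads, and its difference was −5.70 without FOLFIRINOX P19, −7.30 without FOLFIRINOX P14 and −7.38 without both P14 libraries. RNAs of both an inhibitor of CDK1 (PKMYT1) and an activator of its phosphatase (PLK1) were therefore lower.

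CDKN3, a phosphatase that dephosphorylates CDKs, the mitotic kinase AURKA and the CDK4 and CDK6 inhibitor CDKN2C fell by 5.12, 3.89 and 2.50 on the log2 scale (limma adjusted p = 1.7e-06, 1.2e-07 and 2.4e-06). The CDK inhibitor CDKN1A rose from 22156 ± 4997 to 203806 ± 27900.2 (3.22 ± 0.19, limma adjusted p = 7.4e-07), and FBXW7, the ubiquitin ligase subunit that recognizes cyclin E, rose from 1648 ± 306 to 5271 ± 1091 (1.67 ± 0.20, limma adjusted p = 1.8e-04). CDKN2B, a CDK4 and CDK6 inhibitor, had 2101 ± 232 with vehicle and 2989 ± 18.2 with FOLFIRINOX (0.51 ± 0.16, limma adjusted p = 0.0353). The CDKN2B call was lost when any library other than vehicle P15 was left out (limma adjusted p from 0.0755 to 0.123). It was also lost without both P14 libraries (0.14) and without the trend (0.0654). Of the other CDK inhibitors listed, CDKN2D was lower (−0.65, limma adjusted p = 0.0312), with the call lost in 8 alternatives. CDKN1B (−0.47, 0.0714) and CDKN2A (−0.49, 0.121) were not called, but the block called both lower (0.00177 and 0.0165). CDKN1B was also called lower with TMM scaling (0.0499), without vehicle P14 (0.0486) and by edgeR (adjusted p = 0.0492). CDKN1C was not called (0.28, limma adjusted p = 0.535).

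Of 32 partners of the transcriptional CDKs (subunits of TFIIH and the Mediator kinase module, P-TEFb regulators and elongation factors among them), all tested, 2 were lower and 0 higher by limma, with a median of −0.02, so 6.25% were called, against 23.6% of all genes. At an unadjusted p below 0.05 limma gave 3 higher and 5 lower, with no share over all genes computed for that rule. Both edgeR and DESeq2 called 0 higher and 3 lower. Of all 17951 genes edgeR called 1820 higher and 2389 lower, and DESeq2 2330 higher and 2476 lower. The 2 were NELFB (−0.72 ± 0.19, limma adjusted p = 0.0192) and NELFCD (−0.54 ± 0.15, 0.0239), both subunits of the negative elongation factor that pauses RNA polymerase II. Both calls were lost without both P14 libraries (0.156 and 0.11) and without the trend (0.054 and 0.053). Leaving out FOLFIRINOX P14 or P19, or vehicle P14 or P15, also ended both (NELFB 0.06 to 0.0732, NELFCD 0.0568 to 0.12), and leaving out FOLFIRINOX P15 (0.0509) or common total scaling (0.0771) ended that of NELFCD. With the block 6 partners were higher and 6 lower, where it called 22.3% of all genes higher and 21.8% lower.

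Reads from overlapping genes may limit some of these values. No source used here gives the strand setting of the counting, and for CDK3 and most of the shared bases of CCND2 the overlapping gene lies on the same strand. Of the 51 members 29 share no exonic base with another gene and 11 share 10% or more, among them CCND1 (10.3%), CCND2 (13.8%), CCNF (11.8%) and CDK2 (16.8%).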

How the data were processed

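Polyadenylated RNA of 6 libraries was measured. The submitters' processing notes name featureCounts 2.0.6, STAR 2.7.11b, DESeq2 and FastQC 0.12.1, and the build GRCh38, without their order. For the annotation release, the strand setting and the DESeq2 design, nothing is given in the sources used here. The deposited table holds a size-factor-normalized signal per gene and library, the authors' log2 fold changes, a Wald score and p-values. All values (100%) were whole multiples of 1 read within 0.001, so read counts were recovered.

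The signal was tested as log2(value + 1) with limma 3.58.1 (R 4.3.3; mean-variance trend, two-sided, 3 against 3), for genes reaching 10 in 3 libraries, and p-values were adjusted over 17951 genes by Benjamini-Hochberg at 0.05. Fold changes on this scale understate low genes. Folds in the text are ratios of group means. Reads per kilobase used merged exon lengths of GENCODE 29. edgeR 4.0.16 and DESeq2 1.42.0 on recovered reads, other pseudocounts, filters and scalings, and left-out libraries were alternatives, and the limma code was tested on simulated data.

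Deviations from group means correlated at 0.257, 0.282 and 0.288 between libraries with the same P number and at −0.263 to −0.027 otherwise. Because the deviations within a group cancel out, negative values elsewhere follow from the positive ones and add no support of their own. The positive values were above the 0.1 set for pairing, so P numbers, taken from column names, were read as pairs. Replicates differed by more than sampling noise.

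The members, gene lists and motifs were chosen with earlier results of these data known. Named were each tested cell cycle member, other members called with or without the block, and up to 6 list genes per direction with separate groups and a mean of 50 or more. One listed marker gene is not reported here. Further members, CDK inhibitors and overlapping genes were named after their values were seen.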

Additional observations from a re-analysis of the deposited data

How the results depend on the processing

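Across 18 alternatives, 754 values of 42 named genes included 706 on the same side of the threshold, 36 no longer past it, 12 newly past it and none with the opposite sign. The cell cycle counts (2 higher, 14 lower) ranged over 2 to 3 and 13 to 14 with 1 library left out. Over all genes (2047 higher, 2191 lower), leaving out 1 library gave 1318 to 2218 higher and 1544 to 2204 lower, the lowest count of higher genes without FOLFIRINOX P19, and leaving out both P14 libraries gave 1162 and 1368. The replicate block by P number gave 3995 higher and 3918 lower. Common total scaling moved the median of all genes by 0.109 (log2) and the split to 2684 higher and 1699 lower.

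Transcriptional members (1 higher, 0 lower) had 3 higher and 1 lower with the replicate block, 0 higher without the trend and without both P14 libraries, and 0 to 3 higher with 1 library left out. The count of other members lower (2) was 5 with the replicate block, 1 with no filter, common total scaling, quantile scaling (chosen after seeing the data), no trend and without both P14 libraries, and 1 to 2 with 1 library left out. Regulators (3 higher, 18 lower) became 5 and 23 with the replicate block and 4 and 14 with common total scaling. Without both P14 libraries they were 2 and 14, and with 1 library left out 2 to 3 higher and 14 to 17 lower. Transcriptional partners (0 higher, 2 lower) became 6 and 6 with the replicate block, 1 and 1 with common total scaling, 0 lower without the trend or both P14 libraries, and 0 to 1 higher and 0 to 3 lower with 1 library left out. Beyond the calls given with each gene, the block changed no call on a named member. Leaving out a library also leaves fewer residual degrees of freedom. The causes of these shifts were not tested. At 1 to 8 reads (CDC25C with FOLFIRINOX) depth limits the log2 value.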

Other observations

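Genes related to cyclins or CDKs but outside the naming rule were listed beside the members, and those named here were chosen after their values were seen. The list held CCNJL, CCNYL1, CCNB1IP1, CNTD1, CDK-like kinases, CDK5 activators, CDK5RAP genes, CDK11A and CDK11B. Of 16 listed, 14 were tested, and limma called 1 lower and 0 higher (7.14% called, against 23.6% of all genes). At an unadjusted p below 0.05 limma gave 2 higher and 1 lower, with no share over all genes computed for that rule. By edgeR 0 were higher and 1 lower, by DESeq2 2 and 1, and with the block 3 and 1. Of all 17951 genes edgeR called 1820 higher and 2389 lower, and DESeq2 2330 and 2476. The block called 22.3% of all genes higher and 21.8% lower. The gene called lower was the centrosomal CDK5RAP2 (log2 difference −0.75, limma adjusted p = 0.016). That call was lost without FOLFIRINOX P14 (limma adjusted p = 0.0526), FOLFIRINOX P15 (0.0543) or vehicle P15 (0.0543) and without the trend (0.0541). The near-identical CDK11A and CDK11B, between which reads may be split, were not called (limma adjusted p = 0.429 and 0.814). CDK5R1, an activator of CDK5, had 579, 552 and 519.7 with vehicle and 699.5, 820.2 and 779 with FOLFIRINOX in the order P14, P15, P19, separate groups that were not called (limma adjusted p = 0.0669) except with the block (0.0116), common total scaling (0.0391), quantile scaling (0.0227) and DESeq2 (adjusted p = 0.0456). The kinase CDKL3 had 19.9 with vehicle and 48.8 with FOLFIRINOX (log2 difference 1.45, limma adjusted p = 0.052), and was called with pseudocount 8 (0.0361), common total scaling (0.0305), the block (0.00592), without vehicle P14 (0.0353) or vehicle P19 (0.0468), and by DESeq2 (adjusted p = 0.0386). CDK5RAP3 was called with the block alone (limma adjusted p = 0.148 without and 0.00515 with it).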
